A study of Homo sapiens with 4 samples.

Results

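Heat shock chaperone genes that act outside the endoplasmic reticulum (ER) were followed through 4 RNA-seq libraries of human ovarian cancer cell lines of epithelial type. The genes were taken by symbol from a fixed list, HSPA1A, HSPA1B, HSPA8, HSP90AA1, HSP90AB1, HSPH1, HSPB1, DNAJB1, HSPD1 and HSPE1, and all 10 were found among 52402 symbols. In the lines labelled SKOV3 and OVCAR3, the env (envelope) gene of HERV-K119, an endogenous retrovirus of the HERV-K family, had been knocked out by CRISPR-Cas9 (KO), and mock cells served as control. The provirus itself was not analysed here, and the loss of env in these libraries was not checked. The groups are written SKOV3 KO, SKOV3 mock, OVCAR3 KO and OVCAR3 mock, and each holds 1 library. Knockout and mock cultures alike received 100 μg/mL hygromycin for 2 days, beginning about 18 h after transfection. Whether the knockout cells were a pool or a single clone is not given in the sources used here.

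Heat shock proteins keep other proteins folded. In the cytosol, HSP70 proteins bind unfolded chains, a J-domain partner such as DNAJB1 loads them and triggers ATP hydrolysis, and an HSP110 protein such as HSPH1 helps release ADP. HSP90 takes over partly folded clients such as kinases and steroid receptors, small heat shock proteins such as HSPB1 hold unfolding proteins soluble, and in mitochondria HSPD1 and its lid HSPE1 form a closed folding chamber. Some of these genes, such as HSPA8 and HSP90AB1, are expressed in unstressed cells, while others, such as HSPA1A, HSPA1B and DNAJB1, are switched on by heat shock factor 1 (HSF1), which binds inverted repeats of the unit GAA in their control regions. Cancer cells often carry high levels of these chaperones.

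The heat shock elements are shown first because they are the known point of shared control of these genes. RefSeq promoter records (GRCh38.p14) were found for all 10 genes, with 16 start sites, and the 250 bases before each start were searched for 3 alternating units set 2 bases apart, GAA, TTC and GAA or, on the other strand, TTC, GAA and TTC. Of the 35116 promoter records of all genes 155 held such an element (0.441%), and 4 of the 16 records of the members did, each from a different gene. With only the record nearest the principal transcript's start, 3 of 10 members held one, and HSP90AB1 did not. Of the 250 bases searched, all 250 lay in annotated exons in the HSPA8 and HSPD1 windows with an element. In the HSP90AA1 and HSP90AB1 windows with an element, 147 and 77 bases did. A stretch of 30 bases around each element is given on the gene's strand, with the element in capitals.
HSPA8 element, chr11:123062345-123062374, minus strand: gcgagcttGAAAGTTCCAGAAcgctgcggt
HSPA8 second element, chr11:123062170-123062199, minus strand: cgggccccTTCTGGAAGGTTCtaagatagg
HSP90AA1 element, chr14:102087111-102087140, minus strand: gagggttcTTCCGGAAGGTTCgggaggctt
HSP90AB1 element, chr6:44247770-44247799, plus strand: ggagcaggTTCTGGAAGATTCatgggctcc
HSP90AB1 second element, chr6:44247823-44247852, plus strand: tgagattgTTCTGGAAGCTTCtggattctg
HSPD1 element, chr2:197500061-197500090, minus strand: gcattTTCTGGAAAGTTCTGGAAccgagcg
The HSPD1 stretch holds overlapping matches to both spellings, 18 bases in all. The HSP90AB1 elements lie before the start at 44247943 and not before the starts at 44246194 and 44247101.

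Among the members with no 3-unit match, a pair of such units, GAA and TTC in either order, was found before starts of HSPA1A, HSPA1B, HSPB1 and DNAJB1. Such a pair, which every 3-unit element also holds, stands in 11.6% of all promoter records. The stretches are given because HSPA1A and HSPA1B can be compared in them.
HSPA1A, chr6:31815426-31815455, plus strand: cgaaaaccctgGAATATTCccgacctggca
HSPA1B, chr6:31827622-31827651, plus strand: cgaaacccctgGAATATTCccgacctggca
HSPB1, chr7:76302480-76302509, plus strand: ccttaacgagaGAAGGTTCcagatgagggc
DNAJB1, chr19:14518456-14518485, minus strand: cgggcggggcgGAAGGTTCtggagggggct
DNAJB1 second pair, chr19:14518426-14518455, minus strand: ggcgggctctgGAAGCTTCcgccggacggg
No match of either kind was found in the windows of HSPH1 and HSPE1. The starts used for them lie 461 and 385 bases from the principal transcript's start. The HSPE1 window, chr2:197500129-197500378, does not reach the HSPD1 element. An element outside the windows would be missed, and these letters say nothing about binding. HSPA8, HSP90AA1 and HSPD1 hold a 3-unit element in the record nearest the principal transcript's start. In the OVCAR3 pair their log2 ratios of knockout over mock, given below, lay above 0. HSP90AB1, whose elements lie before another start, lay below 0, and HSPE1, with no match in its window, lay above it. A link between elements and ratios was not tested.

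The libraries differed in composition before any heat shock gene was considered. Total counts lay between 15145483 and 22057693. In OVCAR3 KO, mitochondrially encoded rows took 21.9% of the counts, against 5.93% in OVCAR3 mock, 5.93% in SKOV3 KO and 5.16% in SKOV3 mock, and among protein-coding genes its ratio over OVCAR3 mock went with GC content (Spearman correlation across genes -0.42, n = 12543, genes being no independent replicates). The 10 most abundant rows took 20.9% of the counts in OVCAR3 KO, against 6.89% in OVCAR3 mock, and the nuclear RNA NEAT1 had 1501 CPM before scaling factors in OVCAR3 KO, against 143 CPM in OVCAR3 mock. Their part in the OVCAR3 ratios was not tested. Of the epithelial markers EPCAM, CDH1, KRT8, KRT18 and KRT19 all 5 were detected in every library. Their summed level was 1966 CPM in OVCAR3 KO, against 7303 CPM in OVCAR3 mock. It was 5031 CPM in SKOV3 KO, against 5404 CPM in SKOV3 mock. CPM is the count scaled to a common library size. Most of each sum came from KRT8, KRT18 and KRT19. In OVCAR3 4 of the 5 were lower by 2-fold or more, while EPCAM had 268 CPM in OVCAR3 KO, against 315 CPM in OVCAR3 mock. Of the 5 fibroblast markers COL3A1 and LUM were at 0 in all 4 libraries, and the summed level was 35.2 CPM in OVCAR3 KO, against 19.8 CPM in OVCAR3 mock, and 18.8 CPM in SKOV3 KO, against 17.5 CPM in SKOV3 mock, nearly all of it COL1A1. Of the 4 immune markers CD3E was at 0 in all libraries, as was PTPRC, which stood in 2 rows and is uncertain, and the summed level was 1.56 CPM in OVCAR3 KO, against 0.365 CPM in OVCAR3 mock, and 0.698 CPM in SKOV3 KO, against 0.354 CPM in SKOV3 mock. Of the 6 ovarian cancer markers WT1 was at 0 in all 4 libraries. Their summed level was 50.85 CPM in OVCAR3 KO, against 62.63 CPM in OVCAR3 mock. In the SKOV3 pair it was 28.55 CPM in SKOV3 KO, against 26.66 CPM in SKOV3 mock. Of the ovarian cancer markers measured in OVCAR3, PAX8 and MSLN were lower in the knockout library, and MUC16 and FOLR1 higher. The part of these markers in the results was not tested. CDKN2A, a gene known to be deleted in SKOV3, had 91.2 CPM in SKOV3 KO and 90.6 CPM in SKOV3 mock, so the line names are used here as labels only. Other genes listed for the line labels were ERBB2, MUC16 and VIM. ERBB2 had 55.8 CPM in SKOV3 KO, 58.5 CPM in SKOV3 mock, 32.0 CPM in OVCAR3 KO and 73.3 CPM in OVCAR3 mock. MUC16 had 1 count in SKOV3 KO, 1 in SKOV3 mock, 91 in OVCAR3 KO and 45 in OVCAR3 mock. VIM had 2.35 CPM at most. Within a line there is no replicate, so a ratio carries only an exact 95% counting interval, printed in brackets, and no p-value, and a gene was called higher or lower at 2-fold or more with at least 1 CPM in a library of the pair. In these bulk samples fewer cells of a type and less RNA per cell cannot be told apart.

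In the SKOV3 pair all 9 measured members had ratios within 2-fold, and HSPA1A was not measured. The counting interval of HSPA1B ran past 2-fold, from -1.09 to 0.68 in log2. In the OVCAR3 pair HSPA8 and HSPE1 were higher in the knockout library, while HSPB1, DNAJB1 and HSP90AB1 were lower. Among the measured members the log2 ratios of knockout over mock ran from -1.78 to 1.77 in OVCAR3, against -0.18 to 0.28 in SKOV3. Of 8 measured members 2 were called higher in OVCAR3 KO, where 22.5% of all 15560 measured genes were, and 3 were called lower, where 15.4% of all genes were. In SKOV3 KO 0 of 9 measured members were called in either direction, where 0.799% of 13524 genes were called higher and 0.739% lower. The median log2 ratio of the members was 0.29 in OVCAR3, against 0.16 over all genes, and -0.003 in SKOV3, against 0.005 over all genes. Over protein-coding genes the median was -0.02 in OVCAR3 and 0.006 in SKOV3. So many genes were called in OVCAR3 that the share among the members is no result about them, and the order of the members within the pair is what the values describe.

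**Figure D1:**
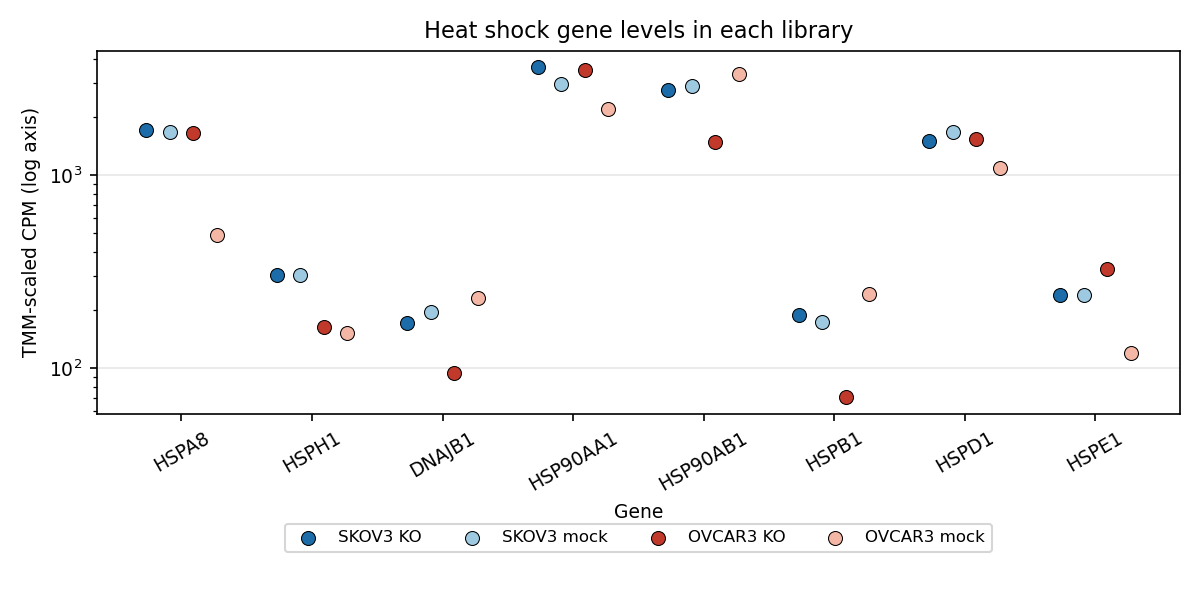
Level of the 8 well-counted members in each library, as TMM-scaled CPM on a log axis, 1 point per library and no error bars. The OVCAR3 mock point lies lowest of the 4 for HSPA8 (489 CPM) and HSPE1 (121 CPM), and the OVCAR3 KO point lies lowest for HSP90AB1 (1482 CPM), HSPB1 (70.7 CPM) and DNAJB1 (94.7 CPM).

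HSPA8, the constitutive cytosolic HSP70 (chromosome 11, 123057489 to 123062462), showed the highest ratio of the members in OVCAR3. It had 1662 CPM in OVCAR3 KO, against 489 CPM in OVCAR3 mock, a log2 ratio of 1.77 (1.73 to 1.80) or 3.40-fold. It had 1714 CPM in SKOV3 KO, against 1677 CPM in SKOV3 mock, a ratio of 0.03 (0.01 to 0.05). With the scaling used here OVCAR3 mock was the library apart, and the other 3 libraries lay within 1662 to 1714 CPM. This closeness depends on the scaling factor of OVCAR3 KO, which was 0.931, and 1.09 with factors from all rows. With factors from all rows the OVCAR3 log2 ratio was 1.475.

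HSPA1A and HSPA1B, the inducible HSP70 pair in the major histocompatibility region of chromosome 6, were too sparsely counted to describe. HSPA1A was listed with 0 counts in all 4 libraries. HSPA1B had 8 counts in OVCAR3 KO, against 13 in OVCAR3 mock, and 19 in SKOV3 KO, against 31 in SKOV3 mock, which is 1.37 CPM at most. Each symbol stood in 5 rows of the files. Of the stretches of 100 bases in the HSPA1A transcript, 69.9% occur unaltered in HSPA1B, and the 250 bases before their starts are 93.6% identical. Among protein-coding symbols that stood in several rows, 46.4% of 972 had 0 counts in all libraries, against 13.1% of 17930 symbols with 1 row. How reads with several matches were counted is not given in the sources used here, so these low counts set no limit on the expression of either gene. HSPA1B is the ninth member wherever 9 are counted, because it reached 1 CPM in both SKOV3 libraries, and nothing is read from its ratios.

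DNAJB1, the J-domain partner of HSP70 that is induced by heat (chromosome 19, 14514769 to 14560391), went the other way from HSPA8. It had 94.7 CPM in OVCAR3 KO, against 232 CPM in OVCAR3 mock, a log2 ratio of -1.29 (-1.38 to -1.20). It had 171 CPM in SKOV3 KO, against 194 CPM in SKOV3 mock, with -0.18 (-0.25 to -0.12). OVCAR3 KO was the lowest of the 4 libraries and OVCAR3 mock the highest. The number of HSPA8 reads per DNAJB1 read, which does not depend on scaling, was 17.6 (16.6 to 18.5) in OVCAR3 KO, against 2.11 (2.03 to 2.19) in OVCAR3 mock, and 10.0 (9.63 to 10.4) in SKOV3 KO, against 8.62 (8.36 to 8.90) in SKOV3 mock.

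HSPH1, the HSP110 exchange factor (chromosome 13, 31134973 to 31162388), differed more between the line labels than between knockout and mock. It had 163 CPM in OVCAR3 KO, against 152 CPM in OVCAR3 mock, and 305 CPM in SKOV3 KO, against 306 CPM in SKOV3 mock. The log2 ratio was 0.10 (0.02 to 0.18) in OVCAR3 and -0.003 (-0.06 to 0.05) in SKOV3, and the OVCAR3 value turned to -0.19 with scaling factors from all rows and to -0.11 with DESeq2 size factors. No direction is therefore given for HSPH1.

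The cytosolic HSP90 genes moved apart in OVCAR3. HSP90AA1, the inducible isoform (chromosome 14, 102080742 to 102139749), had 3499 CPM in OVCAR3 KO, against 2204 CPM in OVCAR3 mock, a log2 ratio of 0.67 (0.65 to 0.69). It had 3629 CPM in SKOV3 KO, against 2980 CPM in SKOV3 mock, with 0.28 (0.27 to 0.30), the largest ratio of the members in SKOV3. Neither value reached 2-fold. With the scaling used here both knockout libraries were above both mock libraries, an order that depends on the scaling factor of OVCAR3 KO.

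HSP90AB1, the constitutive isoform (chromosome 6, 44246194 to 44253883), was lower in OVCAR3 KO. It had 1482 CPM there, against 3342 CPM in OVCAR3 mock, a log2 ratio of -1.17 (-1.20 to -1.15). It had 2751 CPM in SKOV3 KO, against 2916 CPM in SKOV3 mock, with -0.08 (-0.10 to -0.07). Per kilobase of transcript, HSP90AB1 was the most abundant member in both mock libraries, at 1295 CPM per kb in OVCAR3 mock and 1130 CPM per kb in SKOV3 mock, and HSP90AA1 was the most abundant in both knockout libraries, at 1035 CPM per kb in OVCAR3 KO and 1074 CPM per kb in SKOV3 KO, where HSP90AB1 followed closely at 1065 CPM per kb.

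The balance of the HSP90 isoforms needs no scaling between libraries. HSP90AA1 had 2.36 reads per HSP90AB1 read (2.32 to 2.40) in OVCAR3 KO, against 0.659 (0.651 to 0.668) in OVCAR3 mock. In SKOV3 the value was 1.32 (1.30 to 1.34) in SKOV3 KO, against 1.02 (1.01 to 1.03) in SKOV3 mock. The knockout library had the higher value in each line, with intervals that do not overlap and that hold counting error only. Stretches of 100 bases shared with other genes made up 2.2% of the HSP90AA1 and 1.7% of the HSP90AB1 transcript, and stretches of 50 bases 18.2% and 19.5%. No source used here gives the read length.

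**Figure D2:**
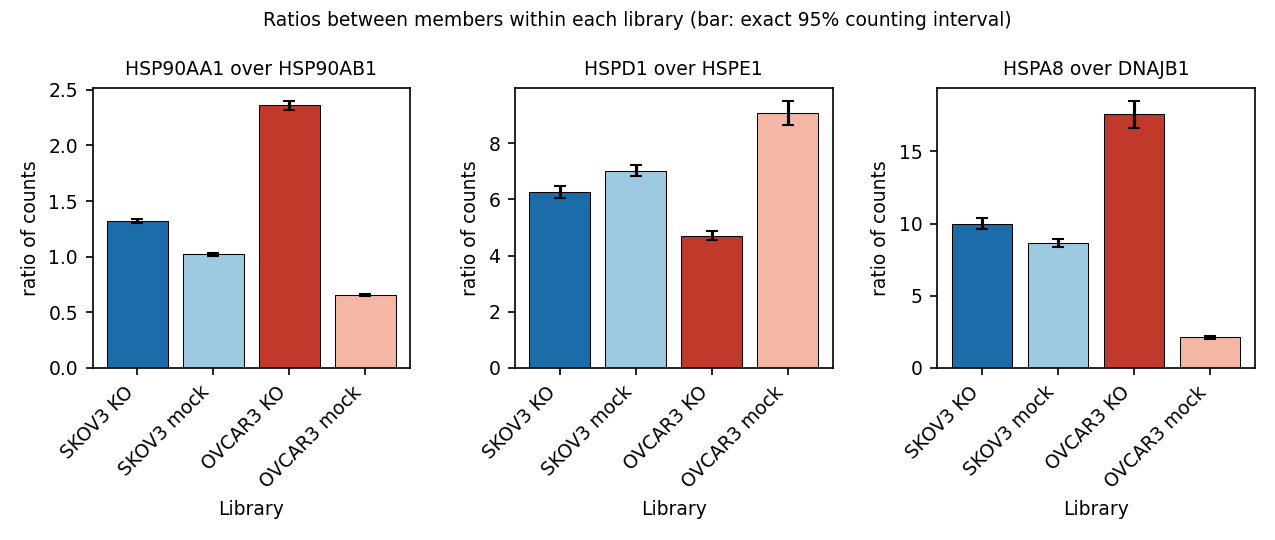
Ratio of read counts between 2 members of the same library, with exact 95% counting intervals, for HSP90AA1 over HSP90AB1, HSPD1 over HSPE1 and HSPA8 over DNAJB1, each axis starting at 0. OVCAR3 KO and OVCAR3 mock give the extreme bars of each panel, such as 17.6 and 2.11 for HSPA8 over DNAJB1, with the SKOV3 libraries between them.

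HSPB1, the small heat shock protein HSP27 (chromosome 7, 76302673 to 76304292), had the lowest ratio of the members. It had 70.7 CPM in OVCAR3 KO, against 243 CPM in OVCAR3 mock, a log2 ratio of -1.78 (-1.88 to -1.69), 3.44-fold lower. It had 188 CPM in SKOV3 KO, against 174 CPM in SKOV3 mock, with 0.11 (0.04 to 0.18). OVCAR3 KO was the lowest of the 4 libraries and OVCAR3 mock the highest, as for DNAJB1.

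The mitochondrial chaperonin genes HSPD1 and HSPE1 stand head to head on chromosome 2 (197486584 to 197500274 and 197500379 to 197503449). HSPE1, the co-chaperonin HSP10, had 325 CPM in OVCAR3 KO, against 121 CPM in OVCAR3 mock, a log2 ratio of 1.43 (1.36 to 1.51). It had 240 CPM in SKOV3 KO, against 239 CPM in SKOV3 mock, with 0.001 (-0.06 to 0.06). OVCAR3 mock was again the lowest library, and OVCAR3 KO was above both SKOV3 libraries.

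HSPD1, the chaperonin HSP60, differed less than its neighbour. It had 1533 CPM in OVCAR3 KO, against 1093 CPM in OVCAR3 mock, a log2 ratio of 0.49 (0.46 to 0.52), and 1498 CPM in SKOV3 KO, against 1682 CPM in SKOV3 mock, with -0.17 (-0.19 to -0.14). HSPD1 had 4.71 reads (4.57 to 4.86) per HSPE1 read in OVCAR3 KO, against 9.07 (8.66 to 9.51) in OVCAR3 mock, and 6.25 (6.04 to 6.47) in SKOV3 KO, against 7.03 (6.83 to 7.23) in SKOV3 mock. The ratio was the lower one in the knockout library of each line. HSPE1 shares 17% of its stretches of 100 bases with other genes, among them the readthrough locus HSPE1-MOB4, which had 19 counts in OVCAR3 KO, against 12 in OVCAR3 mock, and 115 in SKOV3 KO, against 81 in SKOV3 mock.

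**Figure D3:**
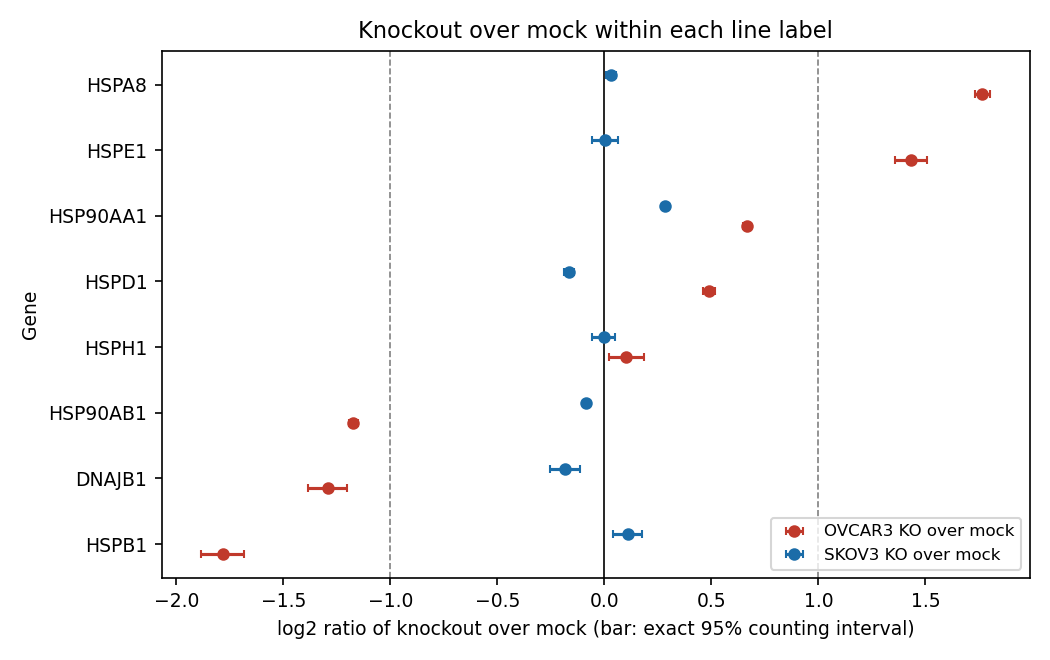
log2 ratio of knockout over mock for the 8 well-counted members within each line label, with exact 95% counting intervals and dashed lines at 2-fold. The SKOV3 points lie between -0.18 and 0.28, and the OVCAR3 points spread from -1.78 for HSPB1 to 1.77 for HSPA8.

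The lines were also compared with each other, which uses the same 4 libraries a second time. HSPA8 was 3.43-fold lower in OVCAR3 mock than in SKOV3 mock, a log2 ratio of -1.78 (-1.81 to -1.74), and HSPH1 was lower with -1.01 (-1.07 to -0.94). These were the 2 of 9 measured members called lower between the mock libraries, where 5.52% of 13721 genes were called lower, and 0 members were called higher, where 9.49% of genes were. HSPE1 lay just inside the 2-fold limit, with -0.99 (-1.07 to -0.92). Between the knockout libraries HSPA8 had -0.04 (-0.07 to -0.02), HSP90AA1 -0.05 (-0.07 to -0.04) and HSPD1 0.03 (0.01 to 0.06). These values near 0 depend on the scaling factor of OVCAR3 KO, which was 0.931, and 1.09 with factors from all rows. Between the same libraries 0 of 9 members were called higher, where 25.3% of 15616 genes were. In OVCAR3 KO 2 of 9 members were called lower, where 14.5% of genes were, HSPB1 with -1.41 (-1.51 to -1.31) and HSPA1B. The HSPA1B call rests on 8 counts in OVCAR3 KO and 19 in SKOV3 KO. It reached 1 CPM in SKOV3 KO alone and its interval includes 0, so nothing is read from that call.

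With the 2 lines as replicates and the line as a block, the quasi-likelihood test of edgeR called 0 of 9 tested members at an adjusted p of 0.05. It called 0 of 13670 genes (0%), with 140 genes and 0 members at an unadjusted p under 0.05. DESeq2 and limma-voom called 0 members as well. The Benjamini-Hochberg adjusted p of the members lay between 0.956 and 0.994. The fitted log2 change was 0.90 for HSPA8 and 0.48 for HSP90AA1, both above 0 in 2 of 2 lines. For HSPA8 the SKOV3 ratio was only 0.03, or 0.016 with DESeq2 size factors, against 1.77 in OVCAR3, so its fitted change reflects OVCAR3. HSPE1 had 0.72 and was above 0 beyond its counting interval in OVCAR3 alone, since its SKOV3 ratio of 0.001 turned to -0.014 with DESeq2 size factors. DNAJB1 had -0.74 and HSP90AB1 -0.63, both below 0 in 2 of 2 lines. The fit has 1 residual degree of freedom among the libraries, and nothing beyond the labels says that the cultures were kept apart. That degree of freedom is the difference in knockout ratio between the lines, so this difference serves as error. Over all measured genes the log2 ratios had a standard deviation of 1.35 in OVCAR3, against 0.33 in SKOV3. The spread was also borrowed across genes (median prior degrees of freedom 8.5). The p-values thus hold no spread beyond these libraries.

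For OVCAR3 over SKOV3 in the same edgeR fit, 0 of 9 members were called, with adjusted p between 0.422 and 0.882, and 0 members had an unadjusted p under 0.05. Over all genes 5 were called (0.0366%), and 1656 had an unadjusted p under 0.05. HSPH1 had the smallest p of the members, with a log2 change of -0.96 and an adjusted p of 0.422, lower in OVCAR3 in 2 of 2 genotypes. Whether the knockout effect differs between the lines could not be tested, because that term leaves no residual degrees of freedom.

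GC content moved with the OVCAR3 ratios over all genes, from a median of 0.49 to one of -0.69 between the lowest and the highest of 5 equal groups of protein-coding genes by GC content. HSPB1 has a GC content of 64.5%, DNAJB1 53.0%, HSPE1 50.2%, HSP90AB1 47.1%, HSPA8 47.0%, HSPD1 44.2%, HSP90AA1 43.0% and HSPH1 40.0%. HSPA8 and HSP90AB1, with nearly the same GC content, had log2 ratios of 1.77 and -1.17. With the trend on GC content and length removed, the log2 ratio was 1.72 for HSPA8, 1.13 for HSPE1, -1.07 for DNAJB1, -1.19 for HSP90AB1 and -1.70 for HSPB1. All 5 stayed past 2-fold under the main scaling, and the removal was not combined with other scalings. The trend had an R squared of 0.152 across genes, and the part of GC content in the ratios was not tested. HSP90AA1 had 0.43, HSPD1 0.25 and HSPH1 -0.29 after the removal.

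**Figure D4:**
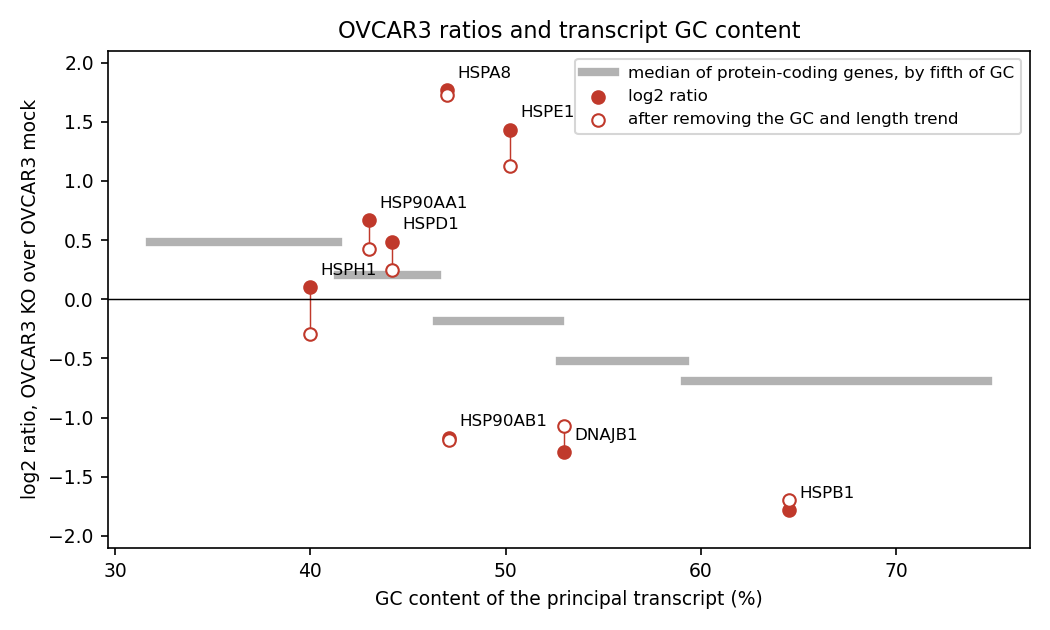
log2 ratio of OVCAR3 KO over OVCAR3 mock against the GC content of the principal transcript, for the 8 well-counted members (filled) and after removing the trend on GC content and length (open), with grey bars for the median of protein-coding genes in each of 5 equal groups by GC content. The grey bars descend from 0.49 to -0.69. HSPA8 lies at 1.77 and HSP90AB1 at -1.17, at nearly the same GC content.

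The rest of the chaperone network outside the ER was read from 9 role lists with 94 genes, by counts only. In OVCAR3, 6 of 83 measured genes were called higher, where 22.5% of all genes were, and 16 were called lower, where 15.4% of all genes were, with a median log2 ratio of -0.08 against 0.16 over all genes. Of 12543 protein-coding genes, the closer reference, 1630 were called higher and 2291 lower, with a median of -0.02. The counts of the single lists below are to be read against the same shares. In SKOV3, 0 of 81 were called, with a median of -0.03. The same lists were lower by a median of -0.37 in OVCAR3 with scaling factors from all rows, with 3 genes called higher and 21 lower, so the list medians carry no direction by themselves.

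HSF1, the activator of the heat shock response, was lower in OVCAR3 KO. It had 34.1 CPM there, against 158 CPM in OVCAR3 mock, a log2 ratio of -2.20 (-2.35 to -2.07), and -1.71 with the GC and length trend removed. It had 188 CPM in SKOV3 KO, against 183 CPM in SKOV3 mock. Its relative HSF2 had 0.58 (0.42 to 0.75) in OVCAR3, which came to 0.11 with the trend removed, and HSBP1, which binds HSF1 and restrains it, had 0.76 (0.70 to 0.82), or 0.67 with the trend removed. HSF4 was higher at low counts, with 9.71 CPM in OVCAR3 KO, against 1.83 CPM in OVCAR3 mock.

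Partners of HSP70 differed in both directions in OVCAR3. Among 14 J-domain genes 1 was called higher and 1 lower. DNAJA1, a J-domain protein of the cytosol, had 235 CPM in OVCAR3 KO, against 105 CPM in OVCAR3 mock, a log2 ratio of 1.16 (1.08 to 1.25), and 0.72 with the GC and length trend removed. It had 249 CPM in SKOV3 KO, against 216 CPM in SKOV3 mock. DNAJB2 was the lower one, with -1.69 (-1.93 to -1.46).

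Of the exchange and linker factors of HSP70, 8 of 9 lay below 0 in OVCAR3, 3 of them by 2-fold or more, with a median of -0.31. BAG3, a stress-induced exchange factor that links HSP70 to autophagy, had 18.1 CPM in OVCAR3 KO, against 102 CPM in OVCAR3 mock, a log2 ratio of -2.49 (-2.69 to -2.31), and -2.05 with the trend removed. HSPBP1 had -1.69 (-1.87 to -1.52). BAG6, with -2.18 (-2.84 to -1.69), stood in 7 rows and is uncertain, like the HSPA1 genes. In SKOV3 the list had 5 of 9 genes below 0 and a median of -0.07.

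Of 15 co-chaperones of HSP90, 4 were called lower and 1 higher in OVCAR3, with a median of -0.38, and 0 in SKOV3, with a median of -0.03. UNC45A, a myosin chaperone, had -1.99 (-2.13 to -1.87), NUDC -1.58 (-1.68 to -1.48) and the phosphatase PPP5C -1.35 (-1.49 to -1.21), which came to -0.93 with the trend removed. The 1 called higher was AHSA2, listed as a relative of the HSP90 ATPase activator AHSA1, with 3.18 (2.91 to 3.51). It had 59.5 CPM in OVCAR3 KO, against 6.45 CPM in OVCAR3 mock. No GC content was found for the symbol AHSA2, so the trend could not be removed from its ratio. Whether AHSA2 codes for a working co-chaperone was not tested, and its call is uncertain as a result about co-chaperones. Of the other small heat shock proteins 2 of 9 were measured in OVCAR3. HSPB8 had -1.95 (-2.58 to -1.46), and HSPB11, better known as a subunit of intraflagellar transport, had 1.59 (1.39 to 1.80).

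Mitochondrial chaperones and proteases other than HSPD1 and HSPE1 had 10 of 15 measured genes below 0 in OVCAR3, 4 of them by 2-fold or more, with a median of -0.34, where 15.4% of all genes were called lower. HSPA9, the mitochondrial HSP70, had 513 CPM in OVCAR3 KO, against 873 CPM in OVCAR3 mock, a log2 ratio of -0.77 (-0.81 to -0.73). TRAP1, the mitochondrial HSP90, had -1.66 (-1.73 to -1.58), and the matrix protease LONP1 -2.66 (-2.78 to -2.55). HSPD1 and HSPE1 thus lay above 0 in the OVCAR3 pair while these 3 genes lay below it. Of the 15 measured genes of the list 5 also lay above 0, and TRAP1 and LONP1 were named for the size of their ratios. HSPD1 had 2.99 reads (2.91 to 3.06) per HSPA9 read in OVCAR3 KO, against 1.25 (1.22 to 1.28) in OVCAR3 mock, and 2.85 (2.78 to 2.93) in SKOV3 KO, against 2.60 (2.55 to 2.65) in SKOV3 mock. In SKOV3 the list had 10 of 15 below 0 and a median of -0.07, with HSPA9 at -0.30 (-0.34 to -0.27).

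The cytosolic chaperonin CCT and its feeder prefoldin had 0 of 13 measured genes past 2-fold in either line. Their median was 0.12 in OVCAR3, where it turned to -0.17 with scaling factors from all rows, and -0.04 in SKOV3. Of the ubiquitin and clearance genes, VCP, an unfolding ATPase, had -1.82 (-1.92 to -1.71) in OVCAR3. SQSTM1 was listed at 5.02 CPM or less in every library and stood in 2 rows, so it is uncertain.

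**Figure D5:**
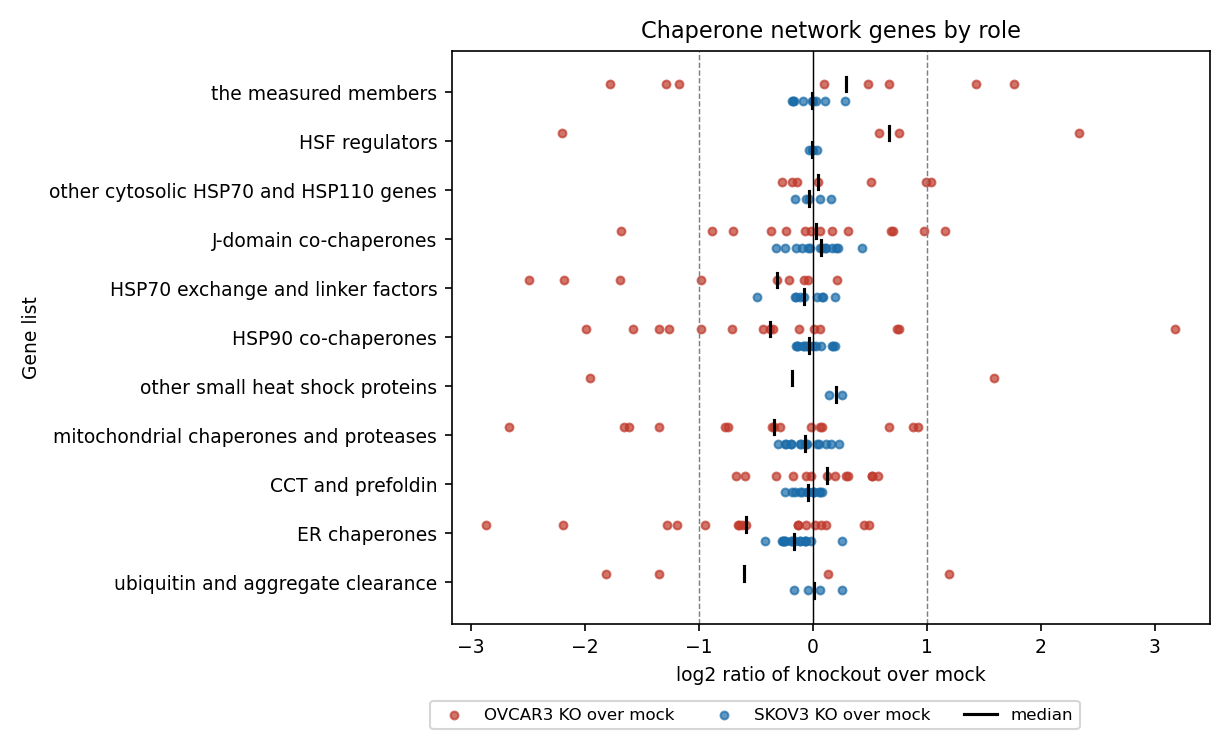
log2 ratio of knockout over mock for measured genes of each role list, 1 point per gene and black ticks at the list median, with dashed lines at 2-fold. SKOV3 points cluster near 0, whereas OVCAR3 points spread widely in most lists, and the CCT and prefoldin list has 0 of 13 genes past 2-fold.

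Across the 4 libraries the mean pattern of all 10 members, HSPA1A at 0 included, as log2 CPM centred on each gene's own mean, was 0.22 in SKOV3 KO, 0.24 in SKOV3 mock, -0.24 in OVCAR3 KO and -0.22 in OVCAR3 mock. By Euclidean distance to this pattern over 4 libraries, the nearest of 9862 protein-coding genes were MRPS10, IPO9, LRCH3, WDR83OS and ATG3, at distances between 0.0107 and 0.0395. HSPD1 was the member nearest the mean, at 0.414, and HSPA8 the farthest, at 1.34. All members thus lay farther from the mean than the genes named here. The mean averages OVCAR3 ratios from -1.78 to 1.77, so nearness to it says nothing about likeness to any single member.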

How the data were processed

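The authors deposited raw counts of reads per gene symbol, 1 table per library, and per the submitters' processing notes TopHat and GRCh38 were used. The kit was NEBNext Ultra II Directional, per the labels' protocols. No source used here gives the counting tool, its annotation or how strand was treated. Counts of repeated symbols (2687 of 52402) were summed. Counts were scaled by TMM factors of edgeR 4.0.16 (R 4.3.3), computed on 13670 genes with at least 1 CPM in 2 libraries and equal to 1.04 in SKOV3 KO, 1.02 in SKOV3 mock, 0.931 in OVCAR3 KO and 1.01 in OVCAR3 mock. Log2 ratios used a prior count of 2, and intervals are Clopper-Pearson bounds at 95%, which cover counting error only. A count of 0 allows up to 3 counts, or 0.204 CPM at most. The model over both lines was edgeR's quasi-likelihood test with Benjamini-Hochberg adjustment, with limma 3.58.1 and DESeq2 1.42.0 as alternatives. GC content and length came from GENCODE 29 principal transcripts, and their trend from splines with 5 degrees of freedom. Named genes outside the members were taken from HSF1, HSF2, HSPA5, HSPA9 and up to 4 genes per list with the largest OVCAR3 ratio at 5 CPM or more; not all of these are printed, and the result of 1 is not reported here. Members and lists were chosen with earlier results of these data known. Elements were searched with Python 3.11.15.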

Additional observations from a re-analysis of the deposited data

Results flagged for a closer look

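HSPB1 and HSPD1 had ratios on opposite sides of 0 in the lines, each with a counting interval clear of 0. HSPB1 had a log2 ratio of knockout over mock of -1.78 in OVCAR3 and 0.11 in SKOV3, where the value came to 0.014 with the GC and length trend removed. HSPD1 had 0.49 in OVCAR3 and -0.17 in SKOV3. These differences between the lines were not tested, since each line has 1 library per genotype.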

How the results depend on the processing

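The counts of members past 2-fold were 2 higher and 3 lower in OVCAR3 and 0 in SKOV3. They were the same under all 10 alternatives, each applied alone, except a fold of 1.5, which gave 3 higher in OVCAR3. The OVCAR3 median of 0.29 moved to 0.086 with DESeq2 size factors, 0.18 with no scaling factor, 0.004 with TMM factors from all rows (chosen after seeing the data) and 0.051 with no filter, and turned to -0.02 with the GC and length trend removed. The SKOV3 median of -0.003 turned to 0.021 with no scaling factor. Scaling moved the OVCAR3 median of all genes from 0.16 to as low as -0.17. Over both lines the HSPH1 change of 0.05 turned to -0.10 with TMM factors from all rows and -0.062 with DESeq2 size factors in edgeR, and the cause was not tested. Without the replicate block, which here is the line, 0 members and 0 genes were called for the knockout. No pairing by replicate number was possible because each group has a single library, and leaving out any library leaves the 2-line test no residual degrees of freedom. With no filter 1 gene was called for the knockout. For the lines, 5 genes were called as reported, 186 by DESeq2, 2 by limma-voom, 226 with no filter and 0 with TMM factors from all rows, DESeq2 size factors, no block or mitochondrial rows left out, with 0 members in each.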

Other observations

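The ER chaperones, set beside the cytosolic members, lay mostly below 0 in both pairs. In OVCAR3 12 of 17 measured genes were below 0, 4 of them by 2-fold or more, where 15.4% of all genes were, with a median of -0.59. One of the 4 is uncertain, HYOU1, which stood in 2 rows and had 1 count in OVCAR3 KO and 20 in OVCAR3 mock. In SKOV3 15 of 16 were below 0, with a median of -0.17. HSPA5, the ER HSP70 known as BiP, had 407 CPM in OVCAR3 KO, against 1858 CPM in OVCAR3 mock, and 562 CPM in SKOV3 KO, against 750 CPM in SKOV3 mock. HSPA8 therefore had 4.09 reads (3.97 to 4.2) per HSPA5 read in OVCAR3 KO, against 0.263 (0.257 to 0.270) in OVCAR3 mock, and 3.05 (2.98 to 3.13) in SKOV3 KO, against 2.24 (2.20 to 2.28) in SKOV3 mock. The collagen chaperone SERPINH1, also a heat shock gene, had a log2 ratio of -1.28 (-1.46 to -1.10) in OVCAR3, which came to -0.82 with the GC and length trend removed.

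The files list 82 pseudogene symbols of the members. Together they held 241 counts in OVCAR3 KO, against 41 in OVCAR3 mock, and 55 in SKOV3 KO, against 106 in SKOV3 mock. For HSPA8, HSP90AA1, HSP90AB1, HSPH1, HSPB1, DNAJB1, HSPD1 and HSPE1 they came to at most 0.438% of its counts.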
